A study of Mus musculus with 4 samples.

Results

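The genes described here are 40 mouse genes of the cell division cycle, 18 with a role in DNA replication and 22 with a role in mitosis, chosen by name. A probe set was present for 39 of them, found through the Entrez gene number that names each probe set: 17 replication genes and all 22 mitosis genes, of 16492 probe sets tested. The expression of Pcna, the sliding clamp of the replication fork, was not analysed here, and only its promoter was. The values are log2 expression values of whole embryonic limbs at E12.5 on 4 arrays, 2 of Tg(Col2a1-SHOX) embryos and 2 of wildtype littermates. The transgenic embryos carried the human SHOXa coding sequence under the rat Col2a1 promoter and enhancer, which drives expression in cartilage-forming cells, so that only part of the limb tissue was targeted. Both genotypes are labelled strain C57BL/6, and the founders came from eggs of C57BL/6 and DBA/2 hybrid mice. Each array carried the RNA of 2 to 4 littermates, fore- and hindlimbs together, and neither the sex of the embryos nor which of the heterozygous transgenic lines was used is given. The submitters describe 2 hybridization experiments, and the endings of the array titles were taken to place 1 transgenic and 1 wildtype array in each, called experiment A (replicate 1 of each genotype) and experiment B (replicate 2) in no order of time.

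A dividing cell licenses its replication origins in G1 by loading the MCM helicase, copies its DNA in S phase, and then builds a spindle, aligns its chromosomes and separates them in mitosis. Transcripts of replication genes rise around the start of S phase, mainly under E2F transcription factors. Those of mitosis genes rise in G2 under the MuvB complex with B-Myb and FoxM1. In the limb bud most mesenchymal cells divide, and cells that enter the cartilage, muscle or tendon lineages slow or leave the cycle as they mature. In pooled whole tissue, fewer dividing cells and less transcript per cell cannot be told apart.

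Promoters in both gene sets, though not all of them, carry sequence classes through which this timing is known to run. These are shown because the replication and mitosis genes differed in them. E2F-type letters were searched as TTTCCCGC, TTTGGCGC or TTTCGCGC, the cell cycle homology region (CHR) as TTTGAA or TTTAAA, and the NF-Y box as CCAAT, each on both strands. TTTAAA reads the same on both strands and was counted once per place. The windows span 250 bases before to 50 bases after the annotated start in RefSeq (GRCm38.p6), 300 bases in all. Windows were held for 34 of the 40 genes. Mcm4, Ccne2, Ccna2, Aurkb, Tpx2 and Kif20a had none. Matches to E2F-type or CHR letters, and to the NF-Y box, stand in capitals below. In Mcm5 and in Mcm6 a pair of E2F-type matches on opposite strands overlap by a few bases and form a single capital block.
Mcm5, chr8:75109259-75109558 (+): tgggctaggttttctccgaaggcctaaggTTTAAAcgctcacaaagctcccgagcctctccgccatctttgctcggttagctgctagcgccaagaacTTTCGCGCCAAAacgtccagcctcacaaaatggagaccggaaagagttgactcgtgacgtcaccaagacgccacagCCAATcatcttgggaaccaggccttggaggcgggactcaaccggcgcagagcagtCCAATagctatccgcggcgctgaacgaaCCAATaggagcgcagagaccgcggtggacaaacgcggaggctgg
Mcm6, chr1:128359656-128359955 (-): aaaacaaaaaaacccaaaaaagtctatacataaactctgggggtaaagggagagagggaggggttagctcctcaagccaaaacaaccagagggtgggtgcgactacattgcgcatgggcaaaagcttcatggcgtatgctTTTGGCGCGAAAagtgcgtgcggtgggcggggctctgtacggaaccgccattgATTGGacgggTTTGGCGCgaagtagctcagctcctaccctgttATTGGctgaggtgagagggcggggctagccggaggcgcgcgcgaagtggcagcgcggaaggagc
Ccnb2, chr9:70421505-70421804 (-): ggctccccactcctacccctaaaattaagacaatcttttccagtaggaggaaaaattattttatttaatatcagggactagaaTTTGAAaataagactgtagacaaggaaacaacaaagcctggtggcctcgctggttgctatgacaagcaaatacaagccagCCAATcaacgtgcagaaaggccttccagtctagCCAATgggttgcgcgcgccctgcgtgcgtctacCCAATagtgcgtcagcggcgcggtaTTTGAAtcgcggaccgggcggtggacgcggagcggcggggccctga
Cdc20, chr4:118437294-118437593 (-): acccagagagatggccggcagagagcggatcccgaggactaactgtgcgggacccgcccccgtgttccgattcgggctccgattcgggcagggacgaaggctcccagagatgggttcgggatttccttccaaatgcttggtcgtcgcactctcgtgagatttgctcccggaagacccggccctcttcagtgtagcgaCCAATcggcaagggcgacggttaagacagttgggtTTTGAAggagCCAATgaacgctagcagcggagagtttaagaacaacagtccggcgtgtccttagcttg
Mcm5 and Mcm6, subunits of the replicative helicase, hold E2F-type letters and the NF-Y box, and Mcm5 also holds 1 distant CHR match. Ccnb2, a cyclin that activates Cdk1, and Cdc20, an activator of the anaphase-promoting complex, hold CHR letters close to the start site together with the NF-Y box and no E2F-type letters. Ccnb2 holds another CHR match that is also distant, at base -167 from the start site.

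E2F-type letters occurred in 7 of 17 windows of the replication genes (41.2%), in 1 of 18 windows of the mitosis genes (5.56%) and in 606 of 32851 windows of all promoters (1.84%). The replication genes with a match were Mcm3, Mcm5, Mcm6, Mcm7, Cdt1, Cdc6 and Pola1, and the only mitosis gene was Cdk1. The CHR letters, which are short and therefore common, occurred in 6 of 17 windows of the replication genes (35.3%), in 15 of 18 of the mitosis genes (83.3%) and in 27.6% of all windows. The NF-Y box occurred in 70.6% of the replication windows, 77.8% of the mitosis windows and 37.4% of all windows, so it did not set the lists apart from each other as the other letters did. CHR letters and the NF-Y box stood together in 4 of 17 replication windows (23.5%), 13 of 18 mitosis windows (72.2%) and 10.7% of all windows. Mcm7 has 2 annotated starts and contributed 2 windows. These matches are letters in a window and not measured binding sites. Only the exact letters were searched, so sites with other letters were not counted.

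**Figure D1:**
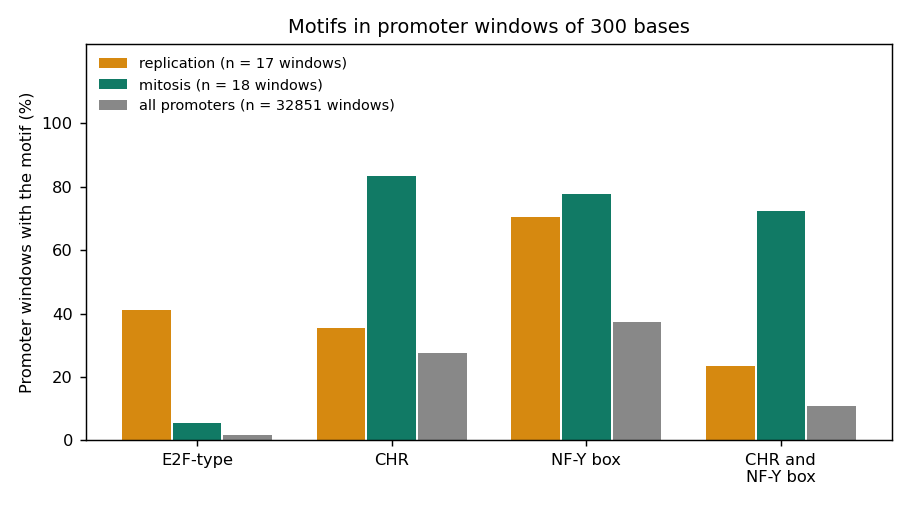
Share of promoter windows (%) that hold E2F-type letters, CHR letters, the NF-Y box, or the last 2 together, for 17 windows of replication genes, 18 windows of mitosis genes and 32851 windows of all promoters. E2F-type letters were found in 41.2% of replication and 5.56% of mitosis windows, and CHR letters in 35.3% and 83.3%.

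The limb tissue of the labels showed in its markers. Prrx1, a limb mesenchyme gene, had log2 values of 10.09 to 10.52, and Sox9, the chondrogenic master regulator, of 9.68 to 9.93 over the 4 arrays. The array probes mouse transcripts and gave no check of the human transgene. The study reports that transgene expression was checked by quantitative RT-PCR before the arrays were hybridized. Xist, which is transcribed from the inactive X of female cells, was at 6.42 and 6.59 on the transgenic arrays, against 9.36 and 9.62 on the wildtype arrays, while the log2 differences of the Y-linked Eif2s3y and Ddx3y were 0.83 and 0.75 in favour of transgenic limbs, so the sex makeup of the pools moved with genotype and cannot be told apart from it. The array medians lay between 7.81 and 7.85, and the number of arrays, 2 per genotype, limits the precision.

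The comparison of transgenic with wildtype limbs asked which genes the SHOX transgene alters. No replication or mitosis gene passed the thresholds of the study's methods, a log2 difference beyond 0.2 with an unadjusted p under 0.05. The p came here from limma on the deposited values. The study itself fitted mixed models to probe values and asked for a change in both experiments, so its selection was not repeated. All 39 mean differences lay between -0.12 and 0.16 on the log2 scale, and their 95% intervals, from the limma fit in which each experiment was a block, reached from -0.27 to 0.28 at the widest. Changes of the size that those intervals hold were therefore not resolved. The p-values measure no spread beyond these pools. They also draw on a variance that limma shares over all probe sets. In the blocked fit this added 16.4 degrees of freedom to 1 residual one, so the shared variance dominates there. Of all 16492 probe sets, 0.133% passed the thresholds upwards and 0.0546% downwards. In a fit that blocks on the experiment the shares were 1.23% and 0.321%, again with no replication or mitosis gene among them. At such shares, 0 of 39 is near the background and says nothing particular of these genes. In the fit without the block, no probe set at all (0.0%) reached an adjusted p under 0.05 by limma, 32 of all probe sets had an unadjusted p under 0.05, and none of the 39 did. With the block, 0.255% of all probe sets were higher and 0.0182% lower at an adjusted p under 0.05, and none of the 39 was.

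Among the replication genes, Ccne2, a cyclin that with Cdk2 starts S phase, had the largest difference. It was at 9.38 (experiment B) and 9.83 (experiment A) in transgenic limbs, against 9.24 and 9.65 in wildtype limbs. It was higher by 0.14 in experiment B and by 0.17 in experiment A, a mean of 0.16 with a standard error of 0.06 in the blocked fit, and its adjusted p by limma was 0.436. Because the experiments were further apart than the genotypes, its 2 transgenic and 2 wildtype values overlapped. Mcm6 was at 11.52 (B) and 11.51 (A) in transgenic limbs, against 11.34 and 11.43 in wildtype limbs. The groups did not overlap and the mean difference was 0.13, with an adjusted p of 0.586 by limma with the block. Ccne2 and Mcm6 were the only members with an unadjusted p under 0.05 in the blocked limma fit (0.0141 and 0.037). These are 2 of 39 members, against 1306 of all 16492 probe sets, so the count does not exceed the background.

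The 6 MCM subunits, which form a single ring-shaped helicase, did not move together. Mcm4 was at 11.35 (B) and 11.35 (A) in transgenic limbs, against 11.22 and 11.33 in wildtype limbs. Mcm3 was at 10.25 (B) and 10.15 (A) in transgenic limbs, against 10.35 and 10.25 in wildtype limbs. Mcm7 was at 11.90 (B) and 11.77 (A), against 12.01 and 11.81. Mcm4 and Mcm6 were thus higher, and Mcm3 and Mcm7 lower, in the transgenic array of each experiment, while Mcm2 and Mcm5 had opposite signs in the experiments. Over the 6 subunits the mean differences ran from -0.11 to 0.13, and their median was -0.01 in each experiment. Rrm1, the large subunit of the ribonucleotide reductase that makes deoxynucleotides, was at 11.15 (B) and 11.30 (A) in transgenic limbs, against 11.31 and 11.33 in wildtype limbs. Rrm2, its small subunit, differed by 0.10 in B and by -0.06 in A, so the subunits of this enzyme showed no shared direction either. Cdt1, which loads the helicase with Cdc6, was at 10.53 (B) and 10.06 (A), against 10.59 and 10.13. It was lower in each transgenic array by 0.05 in B and 0.07 in A, less than the gap between the experiments.

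Cdc45, which activates the loaded helicase, gave the widest disagreement between the experiments. It was at 9.03 (B) and 9.32 (A) in transgenic limbs, against 9.34 and 9.24 in wildtype limbs. The transgenic array was thus lower by 0.30 in experiment B and higher by 0.08 in experiment A. Tyms and Tk1, enzymes of thymidylate supply, and Prim1 and Pola1 of the primase complex, also had opposite signs in the experiments.

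Among the mitosis genes, the largest differences were decreases, none past the test. Ccnb2 was at 11.03 (B) and 10.85 (A) in transgenic limbs, against 11.23 and 10.89 in wildtype limbs. Plk1, the polo kinase of mitotic entry and spindle function, was at 10.43 (B) and 10.00 (A), against 10.59 and 10.08. Aurka, the kinase of spindle poles, was at 10.50 (B) and 10.42 (A), against 10.67 and 10.48. Each was lower in the transgenic array of both experiments, with mean differences of -0.12 for Ccnb2, -0.12 for Plk1 and -0.12 for Aurka, and adjusted p-values by limma with the block of 0.639, 0.631 and 0.66. Top2a, the topoisomerase that untangles sister chromatids, was at 11.49 (B) and 11.90 (A) in transgenic limbs, against 11.68 and 11.94 in wildtype limbs. Mad2l1, a spindle checkpoint protein, was lower by 0.24 in experiment B and differed by 0.00 in experiment A. Cenpe, a kinetochore motor, was the only mitosis gene higher in the transgenic arrays of both experiments, by 0.05 in B and 0.05 in A. Mki67, the widely used marker of cycling cells, had a mean difference of 0.00, made of -0.06 in experiment B and 0.07 in experiment A.

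Over the members, 5 had non-overlapping genotypes (Mcm3, Mcm4, Mcm6, Rrm1 and Bub1b), 12.8% of the 39, against 18.4% of all probe sets. Directions were unequal in experiment B, where 12 of 17 replication genes and 20 of 22 mitosis genes were lower in transgenic limbs, 82.1% of the members against 55.4% of all probe sets. In experiment A, 7 of 17 and 11 of 22 were lower, 46.2% of the members against 52.7% of all probe sets. All 39 members lay above the median signal, and of all probe sets above it 55.5% were lower in B and 41.2% in A. Set against the latter, the members were lower in A somewhat more often than the background. The counts of experiment A depended on scaling: with arrays centred on a common median, or with quantile normalization repeated, 11 of 17 and 13 of 22 were lower, 61.5% of the members against 59.3% (centred) and 51.1% (quantile) of all probe sets. Of the probe sets above the median signal, 48.7% (centred) and 51.8% (quantile) were then lower in A. In experiment B the counts of members were 12 of 17 with both, and 20 (centred) and 19 (quantile) of 22. The median difference of the replication genes was -0.05 in B and 0.01 in A, that of the mitosis genes -0.11 in B and -0.00 in A, and that of all probe sets -0.01 in each. The decrease in experiment B thus included most mitosis genes and was small for each, between -0.24 and 0.05. In the deposited values, 20 of the 39 members had opposite signs in the experiments. With 1 array per genotype in each experiment, the difference between the experiments was not tested. The lowest of the 4 arrays was the transgenic array of experiment B, since the median deviation of the mitosis genes from their own mean over the 4 arrays was -0.09 there and 0.05 in the transgenic array of experiment A, against 0.03 and -0.01 in the wildtype arrays of B and A.

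**Figure D2:**
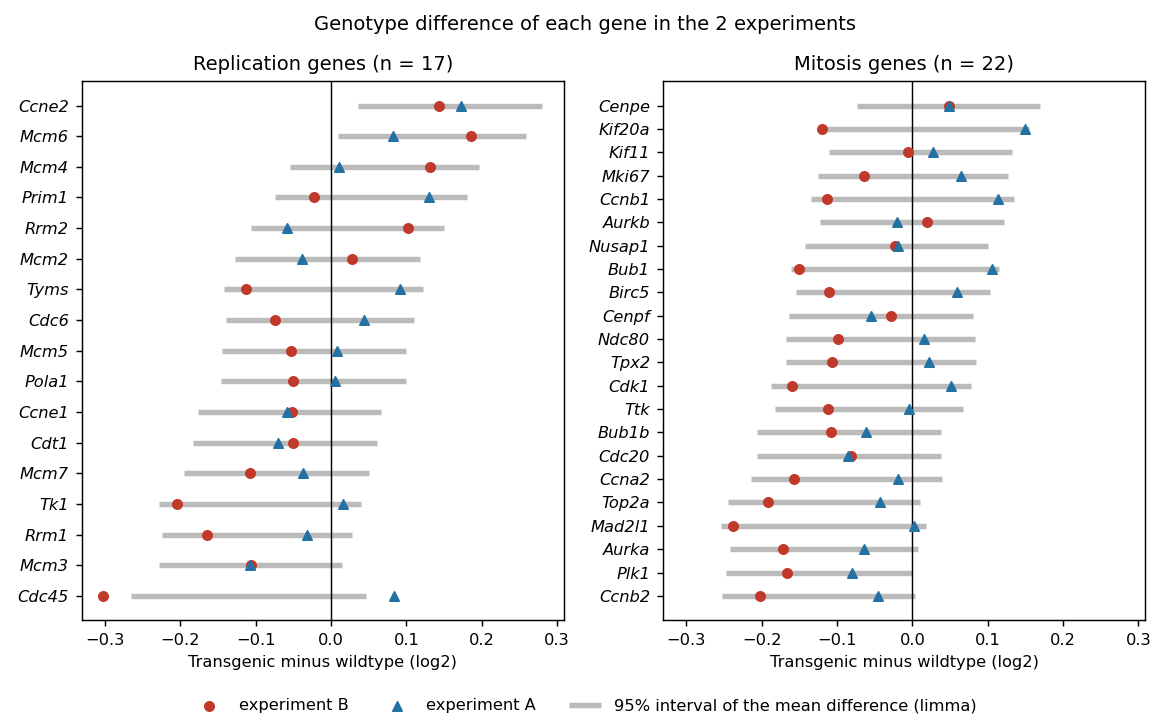
Transgenic minus wildtype difference (log2) of each of the 17 replication genes and 22 mitosis genes in experiment B (circles) and experiment A (triangles), with the 95% interval of the mean difference from the limma fit in which each experiment was a block (grey bars). Most mitosis genes lie left of 0 in experiment B (20 of 22) and on either side of it in experiment A (11 of 22).

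Replication and mitosis genes were set against each other by subtracting the median of the mitosis genes from that of the replication genes. The result was 0.02 on the log2 scale for the mean genotype difference, 0.06 in experiment B and 0.01 in experiment A. On the single arrays, with each gene expressed relative to its own mean, the values were 0.07 on the transgenic array of B and -0.03 on the transgenic array of A, against -0.03 and 0.02 on the wildtype arrays of B and A. The transgenic array of experiment B was thus the one on which the lists lay furthest apart.

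Genes of the same processes outside the chosen lists were also mostly lower in transgenic limbs in experiment B. Of 35 other measured replication genes, such as those of the origin recognition, GINS, polymerase delta and clamp loader complexes, 33 were lower in transgenic limbs in experiment B and 12 in experiment A, with medians of -0.13 and 0.03. With repeated quantile normalization 33 were lower in B and 18 in A. None passed the thresholds in either fit. Of 48 other mitosis genes, 40 were lower in B and 19 in A, with medians of -0.10 and 0.02, and with repeated quantile normalization 40 in B and 26 in A. Ube2c, the ubiquitin-conjugating enzyme of the anaphase-promoting complex, passed the thresholds with the block only. It was at 11.49 (B) and 11.11 (A) in transgenic limbs, against 11.75 and 11.28 in wildtype limbs, a mean difference of -0.21 with an adjusted p of 0.21 by limma with the block. Of 30 regulators of the cycle, 16 were lower in B and 14 in A, and none passed the thresholds. Of these regulators Rb1, the retinoblastoma protein that restrains E2F, had the largest difference, 0.17 higher in transgenic limbs with an adjusted p of 0.377 by limma with the block. The 7 cyclin-dependent kinase inhibitors had medians of -0.05 in B and 0.00 in A, and none passed the thresholds. They split in direction, with 4 lower in B and 2 lower in A. Cdkn1b, Cdkn1a and Cdkn1c were higher in transgenic limbs in B, by 0.193, 0.135 and 0.131. Of 19 p53 targets, Sesn1 passed upwards (0.23) and Pmaip1 downwards (-0.26) with the block, with adjusted p-values of 0.15 and 0.299 by limma.

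Marker lists of cartilage, skeletal muscle and connective tissue matrix had positive medians in both experiments, higher in B. The median genotype difference was 0.21 in B and 0.07 in A for 12 cartilage genes, 0.28 and 0.08 for 15 skeletal muscle genes, and 0.20 and 0.06 for 10 connective tissue matrix genes. Without the block, 1 cartilage gene and no gene of the other 2 lists passed the thresholds upwards (0.133% of all probe sets). With it, 5, 6 and 3 genes did and none passed downwards, against 1.23% and 0.321% of all probe sets. Examples are Col9a3 of cartilage collagen (0.39), the embryonic myosin light chain Myl4 (0.33) and Postn, which encodes the matrix protein periostin (0.56). Limb mesenchyme genes had medians of -0.05 in B and -0.03 in A. Endothelium (0.073 in B and 0.029 in A) and macrophages (0.053 and 0.04) were also positive in both and higher in B. Neurons and Schwann cells (0.005 and 0.207), epidermis (-0.008 and 0.075) and erythroid cells (-0.103 and -0.14) did not share this pattern. The part of tissue makeup in the values of the replication and mitosis genes was not tested.

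**Figure D3:**
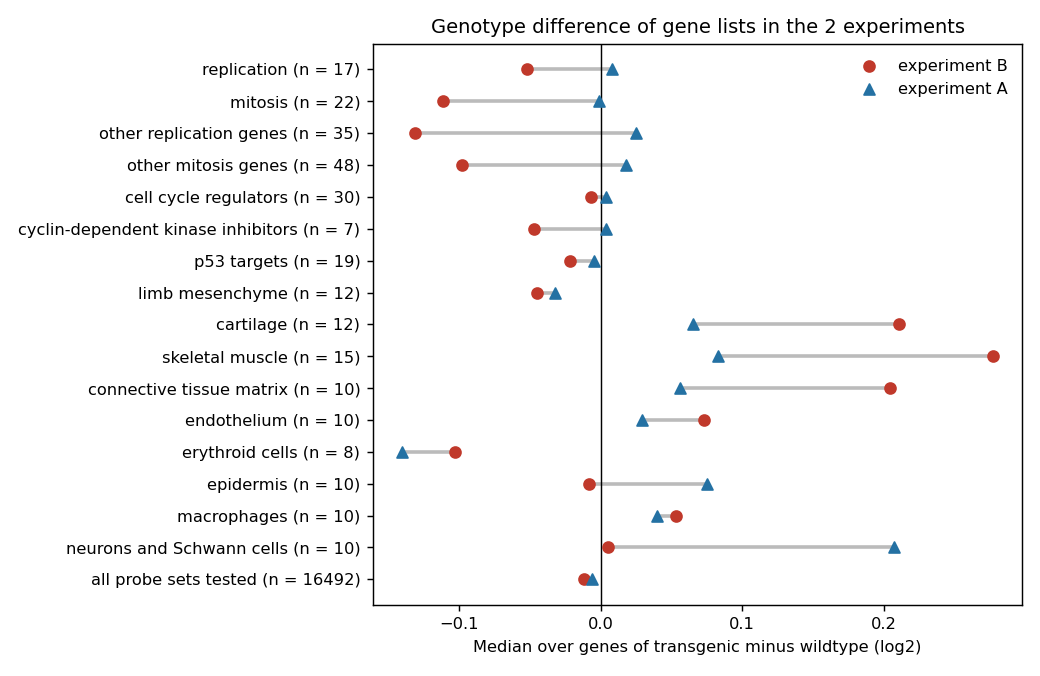
Median transgenic minus wildtype difference (log2) over the genes of each list in experiment B (circles) and experiment A (triangles), with the number of genes measured in brackets. The 4 lists of replication and mitosis genes lie between -0.13 and -0.05 in experiment B, where the cartilage, skeletal muscle and connective tissue matrix lists lie between 0.20 and 0.28.

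The hybridization experiments differed more than the genotypes did over all probe sets and for the mitosis genes. For the replication genes this did not hold against the genotype difference within experiment B. Embryo stage, litter and technical effects cannot be told apart between the experiments. Of the 39 members, 6 were higher and 11 lower in experiment B than in experiment A at an adjusted p under 0.05 (limma with genotype as a term). These are 15.4% and 28.2% of the members, against 20.1% and 19.1% of all probe sets, and 43.6% against 39.2% in either direction. The count of members that differed was thus near the background. Of the replication genes 5 of 17 passed (29.4%), and of the mitosis genes 12 of 22 (54.5%). The median size of the difference between the experiments was 0.09 for replication genes, 0.19 for mitosis genes and 0.11 for all probe sets. That of the genotype difference within B and within A was 0.11 and 0.06 for replication genes and 0.11 and 0.05 for mitosis genes. For all probe sets it was 0.06 in each. The experiments did not overlap for 24 of the 39 genes (61.5%), against 66.4% of all probe sets.

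The mitosis genes split in direction. Plk1 had the largest rise in experiment B, with values of 10.43 on the transgenic and 10.59 on the wildtype array of B, against 10.00 and 10.08 in A. Its difference was 0.47 with a standard error of 0.06 (adjusted p = 5.64e-06, limma). Cdc20 was at 11.61 (transgenic) and 11.69 (wildtype) in B, against 11.25 and 11.33 in A, a difference of 0.36 (adjusted p = 7.99e-05, limma). Each gene was higher on both arrays of B than on either array of A. Aurkb, the kinase of the chromosomal passenger complex, was at 9.55 and 9.54 in B, against 9.26 and 9.28 in A (0.28, adjusted p = 0.000854, limma). Ccnb2 was at 11.03 and 11.23 in B, against 10.85 and 10.89 in A (0.26, adjusted p = 0.00212, limma).

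Of the 8 mitosis genes that were lower in B, Cenpe moved most. It was at 9.09 (transgenic) and 9.05 (wildtype) in B, against 9.78 and 9.73 in A, a difference of -0.69 with a standard error of 0.06 (adjusted p = 7.62e-08, limma). Cenpf, a kinetochore gene like it, had a difference of 0.13 in the other direction, with an adjusted p of 0.0948 by limma. Birc5, the survivin subunit of the same complex as Aurkb, was at 10.65 and 10.76 in B, against 11.08 and 11.02 in A (-0.34, adjusted p = 0.000215, limma). Birc5 thus moved in the opposite direction to Aurkb. Incenp and Cdca8, genes of the same complex outside the chosen lists, were higher in B as Aurkb was. Their differences were 0.49 (adjusted p = 3.1e-06, limma) and 0.41 (adjusted p = 2.91e-05, limma). Top2a was at 11.49 and 11.68 in B, against 11.90 and 11.94 in A (-0.33, adjusted p = 0.000248, limma). Nusap1, a microtubule-binding spindle protein, was at 10.62 and 10.65 in B, against 10.94 and 10.96 in A (-0.32, adjusted p = 0.000258, limma). In Top2a and in Nusap1 all values of B lay below all values of A.

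The remaining mitosis genes that passed were the S phase and G2 cyclin Ccna2 (-0.27, adjusted p = 0.00175), its kinase Cdk1 (-0.25, adjusted p = 0.00436), the spindle motor Kif11 (-0.23, adjusted p = 0.00361) and the kinetochore gene Ndc80 (-0.15, adjusted p = 0.0497), all by limma. Ccna2 was at 11.07 (transgenic) and 11.22 (wildtype) in B, against 11.40 and 11.42 in A. Cdk1 was at 11.49 and 11.65 in B, against 11.84 and 11.79 in A. Kif11 was at 9.71 and 9.72 in B, against 9.96 and 9.93 in A. These genes stayed apart between the experiments in both genotypes, and so did Ndc80 at 9.001 and 9.10 in B, against 9.21 and 9.20 in A. The B-type cyclins divided, with Ccnb2 higher in B and Ccnb1 at -0.13 (adjusted p = 0.108, limma). None of the 4 spindle checkpoint genes Bub1, Bub1b, Ttk and Mad2l1 passed, and their differences lay between -0.00 and 0.07.

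Among the replication genes, the 2 that were higher in B, Cdt1 and Mcm7, both serve the licensing of origins. Cdt1 was at 10.53 (transgenic) and 10.59 (wildtype) in B, against 10.06 and 10.13 in A, a difference of 0.46 (adjusted p = 5.95e-06, limma). Mcm7 was at 11.90 and 12.01 in B, against 11.77 and 11.81 in A (0.16, adjusted p = 0.0371, limma). The other 5 MCM subunits did not pass, with 0.10 for Mcm3 and 0.08 for Mcm5 the nearest. Cdc6, which works with Cdt1, had a difference of 0.04 (adjusted p = 0.629, limma), so the helicase loaders did not share the change. Ccne2 was at 9.38 and 9.24 in B, against 9.83 and 9.65 in A, a difference of -0.43 (adjusted p = 1.27e-05, limma). Its close relative Ccne1 had a difference of -0.06 (adjusted p = 0.472, limma). Tk1, the thymidine kinase of S phase, was at 9.56 and 9.77 in B, against 9.90 and 9.89 in A (-0.23, adjusted p = 0.00756, limma). Prim1, the catalytic primase subunit, was at 10.19 and 10.21 in B, against 10.42 and 10.29 in A (-0.16, adjusted p = 0.0481, limma). Rrm1 had a difference of -0.09 that did not pass (adjusted p = 0.274, limma).

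**Figure D4:**
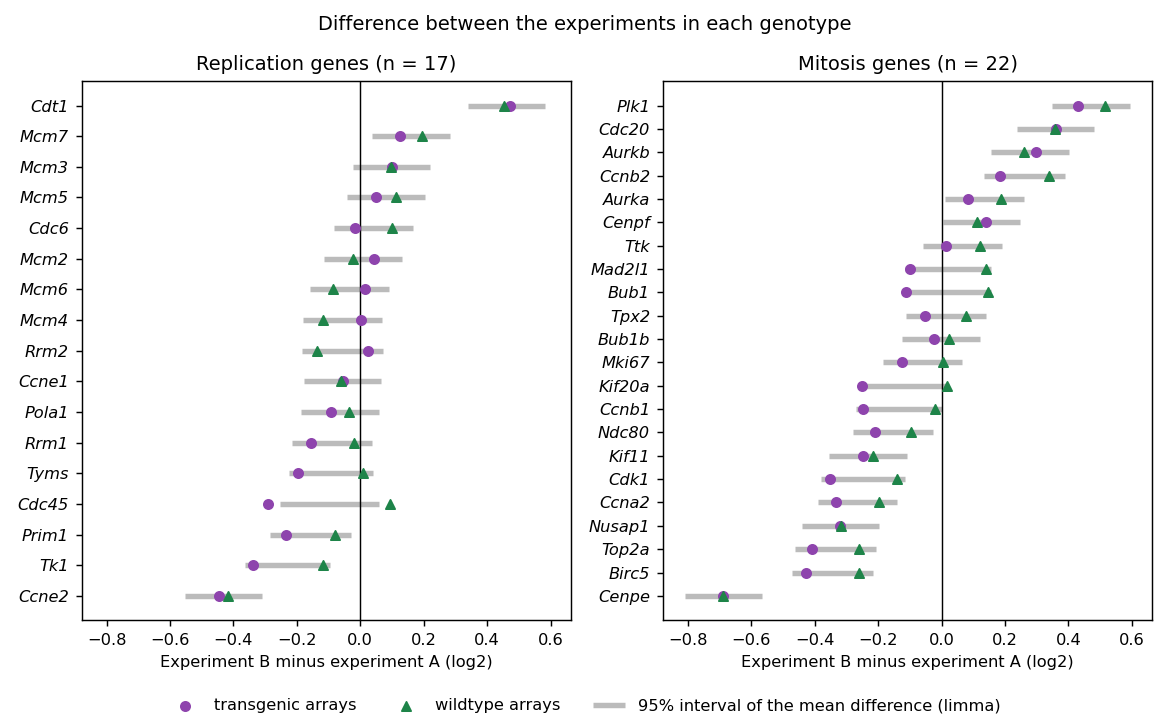
Experiment B minus experiment A difference (log2) of each gene on the transgenic arrays (circles) and the wildtype arrays (triangles), with the 95% interval of the mean difference from limma with genotype as a term (grey bars). Plk1 (0.47) and Cdt1 (0.46) mark one end and Cenpe (-0.69) and Ccne2 (-0.43) the other, with the genotypes close together for these genes.

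**Figure D5:**
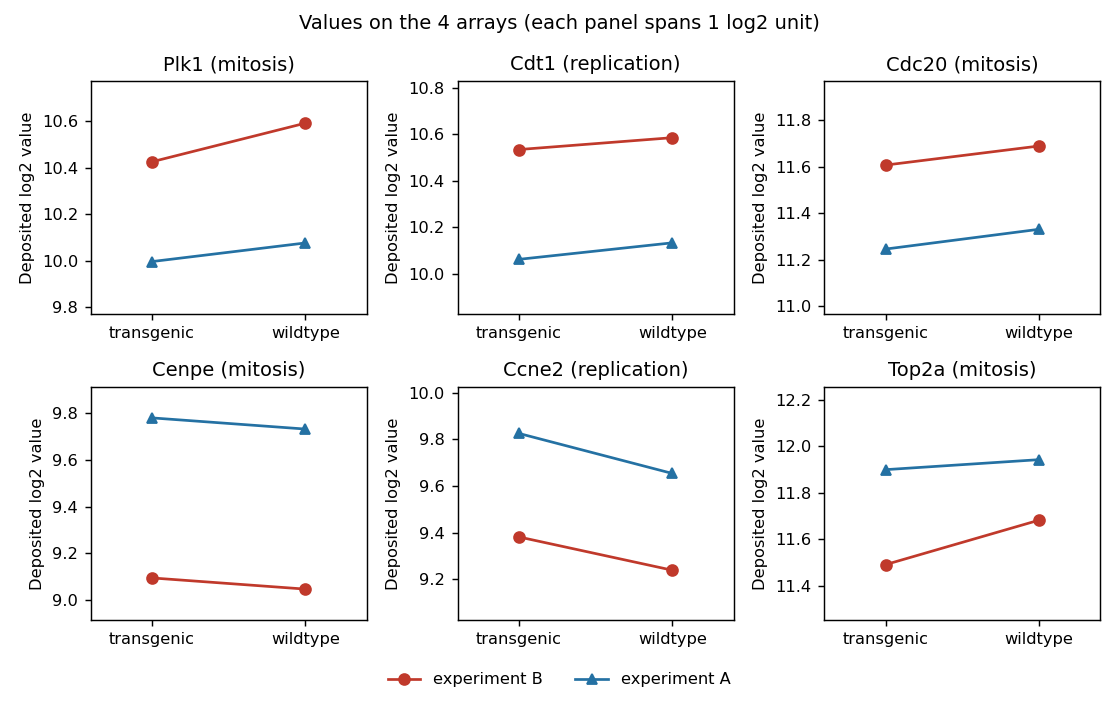
Deposited log2 values of 6 genes on the transgenic and wildtype arrays of experiment B (circles) and experiment A (triangles), each panel spanning 1 log2 unit. In every panel the lines of the experiments stay apart, with B above A for Plk1, Cdt1 and Cdc20 and below A for Cenpe, Ccne2 and Top2a.

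The median difference between the experiments did not part the lists. It was -0.06 for replication and -0.03 for mitosis genes, against 0.01 for all probe sets, and the replication minus mitosis value was -0.03. Within the genotypes the order turned: replication minus mitosis was 0.10 on the transgenic arrays and -0.04 on the wildtype arrays. Other genes of these processes also moved in both directions, but so did all probe sets. Of all probe sets, 20.1% were higher and 19.1% lower in B at an adjusted p under 0.05, 39.2% in either direction. Mixed directions therefore say nothing particular of these processes. Of 35 other replication genes, 7 were higher and 7 lower in B at that threshold, which is near the background. Among them were Pold1, the catalytic subunit of polymerase delta (0.42), and Rfc1, the large subunit of the clamp loader (-0.48). Of 48 other mitosis genes, 13 were higher and 14 lower (56.2% in either direction), among them the separase gene Espl1 (0.58) and the spindle gene Ckap2l (-0.66). Of the 30 regulators, 11 were higher and 6 lower (56.7% in either direction). Foxm1, a transcription factor of G2 and mitosis genes, was higher by 0.53 (adjusted p = 1.35e-06, limma). Cdkn1b, which encodes the p27 inhibitor, was lower by 0.52 on the log2 scale (adjusted p = 2.62e-06, limma).

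Tissue markers also differed between the experiments at an adjusted p under 0.05. Of all probe sets 20.1% were higher and 19.1% lower in B. Of 12 limb mesenchyme genes 9 were higher (75.0%) and 1 lower (8.33%) in B, with a median of 0.41. Of 15 skeletal muscle genes 13 were lower (86.7%) and 1 higher (6.67%), with a median of -0.45. Of 10 connective tissue matrix genes 7 were lower (70.0%) and 1 higher (10.0%), with a median of -0.28. Of 12 cartilage genes 5 were higher (41.7%) and 4 lower (33.3%), with a median of 0.13. Hapln1, a link protein of cartilage matrix, had a difference of -0.78, and Matn1, a cartilage matrilin, of -0.39. Col2a1, the gene whose rat promoter drives the transgene, was at 11.87 (transgenic) and 11.68 (wildtype) in B, against 10.55 and 10.58 in A. The part of these tissue differences in the values of the replication and mitosis genes was not tested.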

How the data were processed

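Pooled limb RNA was measured on 4 Affymetrix mouse genome arrays. The authors log transformed the perfect-match values, applied quantile normalization and mixed models in JMP Genomics, used a probe definition based on Entrez genes, and deposited log2 values per probe set. The step that summarised probes is not given in the sources used here, and neither is signal over background. The log2 base was read from the range of the values and the methods' threshold.

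The 40 genes and all lists were chosen with earlier results of these data known. Without the 64 controls, 16492 probe sets entered limma 3.58.1 in R 4.3.3 (lmFit, eBayes, Benjamini-Hochberg adjustment over all of them, threshold 0.05). Gene names came from the platform annotation (15270) or from the Entrez number and RefSeq (988), and 234 stayed unnamed. The genotype fit had no other term, with the experiment as a block as an alternative, and the experiment fit kept genotype as a term. They had 2, 1 and 1 residual degrees of freedom, to which limma added 2.4, 16.4 and 16.4. Experiments were read from a suffix shared by array titles and from the submitters' account of 2 hybridization experiments with littermates. Deviations of paired arrays from their group means correlated at 0.857 over probe sets. Other settings were centring, repeated quantile normalization, signal filters, an intensity trend, analysis of variance without moderation and each array left out. The fits were tested on simulated data.

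Values on each array are given for genes that a rule names: in each list, up to 4 genes per direction with the largest difference of one sign in both experiments (or both genotypes), all genes past the adjusted threshold, and up to 3 per other list. Cdc45, Mad2l1, Mki67, Rrm2, Cdc6, Ccne1, Ccnb1 and Cenpf were added after their values were seen.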

Additional observations from a re-analysis of the deposited data

Results flagged for a closer look

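These values had opposite signs in the 2 experiments, each with 1 transgenic and 1 wildtype array, and the difference between the experiments was not tested. The median transgenic minus wildtype difference (log2) was -0.052 in experiment B and 0.008 in experiment A for the 17 replication genes, -0.131 and 0.025 for the 35 other replication genes, and -0.098 and 0.018 for the 48 other mitosis genes. The medians of experiment A are close to 0. That of the replication genes changed sign with arrays centred (-0.007), and all of them did with repeated quantile normalization (-0.013 for replication, -0.003 for other replication and -0.006 for other mitosis genes), which removes the opposite signs.

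Tk1 differed by -0.204 in B and 0.016 in A, and Cdk1 by -0.16 and 0.051. Prim1 differed by -0.023 in B and 0.13 in A, Birc5 by -0.111 and 0.059, and Ndc80 by -0.099 and 0.016. Mcm5 differed by -0.053 in B and 0.008 in A, Kif11 by -0.006 and 0.027, and Aurkb by 0.019 and -0.02. Of all 39 genes, 20 had opposite signs, against 7773 of all 16492 probe sets.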

How the results depend on the processing

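No alternative run brought any of the 39 genes past the thresholds in the genotype comparison, the replicate block included (0 higher and 0 lower). The block changed no call of these genes. Leaving out each array turned the sign of the genotype difference for 7 of the 12 genes it was run for, because an unpaired array then sets the experiments against each other: Ccne2 ranged from -0.065 to 0.38, Mcm7 from -0.17 to 0.025, Cdt1 from -0.297 to 0.175, Cenpe from -0.295 to 0.392, Ccnb2 from -0.294 to 0.046, Plk1 from -0.381 to 0.134 and Top2a from -0.321 to 0.087. The median of the replication genes then ranged from -0.057 to 0.01, with 0.01 without transgenic replicate 2. That of the mitosis genes ranged from -0.104 to 0.048, with 0.048 without transgenic replicate 2, and replication minus mitosis from -0.038 to 0.047. Within experiment B, the medians of the replication and mitosis genes were -0.06 and -0.119 with arrays centred and -0.04 and -0.098 with repeated quantile normalization, settings added after the values were seen.

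For experiment B minus A, 11 genes were lower, and 6 to 10 were lower with each array left out (7 without transgenic replicate 1, 6 without transgenic replicate 2). Those fits leave out genotype, since 3 arrays with both terms have no residual degrees of freedom. Genes higher numbered 4 to 7. Ccne2, Cdt1, Top2a, Aurkb, Plk1, Cdc20, Birc5, Kif11, Cenpe and Nusap1 passed in every setting run, while Mcm7, Tk1, Prim1, Ccna2, Ccnb2, Cdk1 and Ndc80 each lost the threshold in 1 or more. The median of the replication genes was -0.088 with arrays centred and 0.049 with repeated quantile normalization, and ranged from -0.062 to -0.006 with each array left out, so its direction is not settled. Replication minus mitosis ranged from -0.043 to 0.09. Rrm1 turned to 0.023 with repeated quantile normalization.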
